A study of Arabidopsis thaliana with 4 samples.

Results

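The genes of gibberellin metabolism and signalling were examined for KAN1 binding, taking every binding region that the deposited table places beside or over one of 32 genes. The genes were listed by their known roles: 5 genes of early synthesis, 4 GA 20-oxidases, 2 GA 3-oxidases, 7 GA 2-oxidases, 3 receptors, 5 DELLA genes, 2 DELLA regulators and 4 GASA genes. The table names 31 of them and 22970 genes in all. Beside these 31 genes lie 109 of the 22103 regions on the 5 chromosomes, with 1 to 7 regions per gene. SPY (AT3G11540), the remaining gene, is named by no region.

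Gibberellins (GA) are diterpenoid hormones that promote germination, elongation of stems and leaves, and flowering. Early enzymes build the carbon skeleton, GA 20-oxidases and GA 3-oxidases turn it into the active hormone, and GA 2-oxidases inactivate it. The GID1 receptors bind the active hormone and then capture DELLA proteins, nuclear repressors of growth, which the F-box protein SLY1 marks for degradation. KAN1 is a GARP family transcription factor that promotes abaxial, or lower side, identity in lateral organs.

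The ChIP libraries came from 35S:FLAG-GR-KAN1 plants of the Columbia-0 ecotype, in which the constitutive 35S promoter drives KAN1 fused to a FLAG epitope and to the glucocorticoid receptor, so that dexamethasone (DEX) moves it into the nucleus in most tissues and not only where KAN1 is normally active. After 10 days of liquid culture the plants received DEX for 45 min, and chromatin was precipitated with anti-FLAG beads (n = 2). The 2 control libraries, also Columbia-0, share culture and DEX in the labels, which give their antibody as input, while the study's methods describe a single control library, from Col-0 plants. Which of the controls that library is was not given, and control reads are summed over both. The study calls the ChIP experiments independent without saying whether they came from separate cultures. The called regions hold 2084091 reads of ChIP replicate 1, 1037288 of ChIP replicate 2, 663580 of control 1 and 13462 of control 2, and the full depth of the libraries is unknown. Enrichment was expressed as a ratio, the reads of a ChIP library divided by the summed reads of both controls in the same region. A region is called bound where the mean of both replicate ratios was at least 3. The ratios are not scaled for depth, both share 1 denominator, and the SD given with each mean is over the 2 replicates and therefore contains the difference in depth.

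The element VGAATAW was identified by the study through a motif search of its enriched regions in these same data. It stands for a GAATA core that follows any base other than T and precedes A or T. Its 6 forms are AGAATAA and AGAATAT, then CGAATAA and also CGAATAT, and lastly GGAATAA or else GGAATAT. It was searched on both strands of the TAIR10.1 sequence. The 2 sequences that follow are the central 300 bases of 2 of the most enriched intergenic member regions, and they are shown because the first holds an element and the other none. Capitals mark the element, which reads TTATTCC where it lies on the other strand. Both are printed from the plus strand of TAIR10.1. The RGA sequence is chr2:261285-261584 and the GID1B sequence is chr3:23288756-23289055.
RGA, 3883 bp upstream: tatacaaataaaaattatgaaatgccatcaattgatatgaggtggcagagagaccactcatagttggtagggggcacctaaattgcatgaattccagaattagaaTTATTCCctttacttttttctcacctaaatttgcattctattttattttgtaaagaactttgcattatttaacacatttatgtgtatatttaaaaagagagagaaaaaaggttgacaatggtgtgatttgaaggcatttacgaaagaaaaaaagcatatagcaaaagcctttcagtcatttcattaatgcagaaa
GID1B, 519 bp upstream: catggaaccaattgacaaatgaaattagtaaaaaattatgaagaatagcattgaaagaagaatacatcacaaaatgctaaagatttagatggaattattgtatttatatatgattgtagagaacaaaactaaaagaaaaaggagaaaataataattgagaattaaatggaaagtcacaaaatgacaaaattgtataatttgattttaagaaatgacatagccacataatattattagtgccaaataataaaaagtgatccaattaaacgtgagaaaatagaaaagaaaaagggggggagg

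Single elements from the regions described further on are given next with 10 bases on each side, each read along the strand of the element, with the element in capitals. They are examples from receptor, DELLA, GA 2-oxidase and GASA regions, and not every element of these regions is printed.
GID1A, 99 bp upstream, first: tggaggataaGGAATATctgcgtattt
GID1A, 99 bp upstream, next: acctcttggcGGAATATatatcttttt
GID1C, 293 bp downstream, first: cacaatgatgAGAATATagttaataaa
GID1C, 293 bp downstream, last: aacaatgatgAGAATATagataatatc
GAI, 1259 bp upstream, first: ttgtgttccaCGAATAAttatgctccg
GAI, 1259 bp upstream, next: aaaataatttCGAATATttttgtaaga
GA2OX4, 2070 bp downstream: ctttcacacaCGAATATctttgctttg
GA2OX6, inside: atgacgaagaGGAATAAcaagtcaaat
GASA6, 4699 bp upstream: agacaggaagAGAATAAtaaatttcta
The windows of GID1C share an unbroken run of 18 letters, acaatgatgAGAATATag, and their elements start 243 bp apart (chr5:9631462-9631488 and chr5:9631705-9631731). The windows of GID1A lie at chr3:1430376-1430402 and chr3:1430402-1430428, those of GAI at chr1:5147850-5147876 and chr1:5148112-5148138. The window of GA2OX4 is chr1:17702945-17702971, that of GA2OX6 chr1:488472-488498 and that of GASA6 chr1:28048570-28048596. In a pair of regions, elements lay within 10 bp of each other, and these are printed together from the plus strand with 5 bases on each side.
GID1A, 539 bp upstream: aaaagTTATTCCaCGAATAAaattg
GA2OX6, 1133 bp upstream: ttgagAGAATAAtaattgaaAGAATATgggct
In GID1A (chr3:1429917-1429941) the elements face opposite ways with 1 base between them. In GA2OX6 (chr1:485638-485669) they point the same way with 8 bases between them.

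To ask how often KAN1 bound beside gibberellin genes, their regions were set against all regions and all genes of the table. A bound region lay beside 15 of the 31 genes (48.4%), while 25.4% of all genes named had one. Of the 109 member regions, 34 were bound (31.2%), against 18.8% of all regions. A ratio of at least 3 in each replicate was reached beside 8 of the 31 genes (25.8%), against 11.5% of all genes. The share of gibberellin genes was thus above that of all genes under both rules, which are not independent. The genes were chosen with earlier results of these data known, so the difference only describes this list and was not tested. The second rule gave the same counts as replicate 2 alone, since replicate 1 had the higher ratio in 99.9% of all bound regions. The median mean ratio was 2.09 in member regions, with quartiles of 1.53 and 3.33 and a range from 0.763 to 7.01, and 1.62 in all regions, with quartiles of 1.12 and 2.57 and a range from 0.317 to 16.3. The same order held in each replicate, with medians of 2.66 and 2.18 in replicate 1 and of 1.39 and 1.09 in replicate 2. Among bound regions the order was the opposite, with a median of 3.81 in the 34 member regions and 4.07 in all.

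Genes with more regions have more chances to be bound, and gibberellin genes had a median of 3 regions where all genes had 2. Of the members with 3 or more regions, 14 of 20 (70.0%) were bound, against 52.3% of all such genes. Of those with 2 regions, 0 of 4 were bound, against 22.5%, and of those with 1 region, 1 of 7 (14.3%), against 8.60%. The bound members therefore lay, with GID1C as the exception, among genes with at least 3 regions. The part of the number of regions in the difference was not tested.

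**Figure D1:**
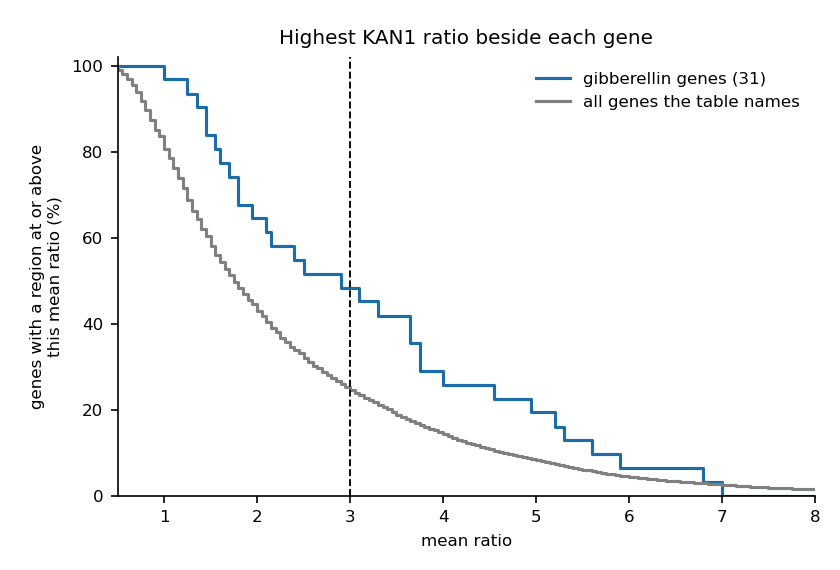
Share of genes (vertical axis, %) with at least 1 region at or above a given mean ratio (horizontal axis), for the 31 gibberellin genes of the table and for all 22970 genes it names. The dashed line marks the mean ratio of 3, which 48.4% of the gibberellin genes and 25.4% of all genes reached.

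The share of bound regions was read for each step of the pathway against the 18.8% of all regions. Of the regions of receptor and DELLA genes 19 of 31 were bound (61.3%), of those of GASA genes 6 of 16 (37.5%) and of those of GA 2-oxidase genes 7 of 25 (28.0%). Of the regions of GA 3-oxidase genes 1 of 10 was bound, of those of GA 20-oxidase genes 1 of 12 and of those of early synthesis genes 0 of 13. These counts rest on few genes and regions for each step, and the steps were not tested against each other or against all regions. They cover only the listed genes, which do not make up whole families. At the 9 other GASA genes that the table names, 0 of 17 pairs of region and gene were bound. GA3OX3, a further GA 3-oxidase gene, had 2 of 2 regions bound.

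**Figure D2:**
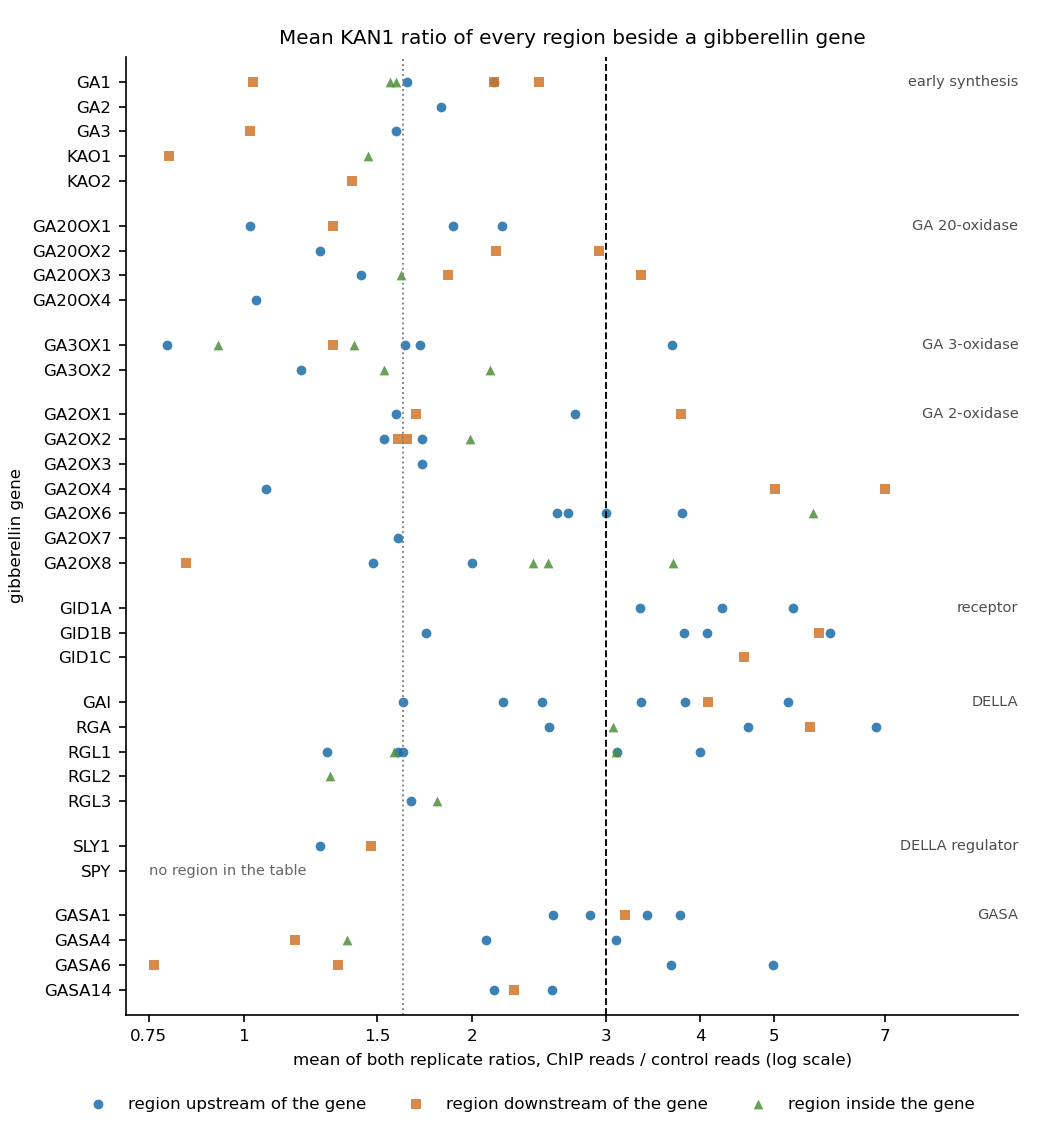
Mean ratio of ChIP to control reads (horizontal, log scale) of each of the 109 regions, by gibberellin gene and role, with the symbol giving the side of the gene on which the region lies. The dashed line is the mean ratio of 3 and the dotted line the median of all regions, 1.62; the receptor row holds 8 of 9 regions at or above 3, the early synthesis rows none of 13.

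All 3 GID1 receptor genes lay beside bound regions, and 8 of their 9 regions were bound, with a median mean ratio of 4.27 and a range from 1.74 to 5.92. GID1B (AT3G63010) had 4 bound regions. The one 519 bp upstream (chr3:23288682-23289129), whose sequence without an element is printed above, had 305 and 145 ChIP reads in replicates 1 and 2 and 38 and 0 reads in controls 1 and 2. Its ratios were 8.03 and 3.82, with a mean of 5.92 ± 2.98 (SD, n = 2). Nearly the same height was found on the other side of the gene, 490 bp downstream (chr3:23291741-23292212), where 391 and 217 ChIP reads stood against 49 and 4 control reads and the mean ratio was 5.74 ± 2.32. Both ratios reached 3 on either side of the gene. The 2 regions farther upstream were nearer to AT3G63006. At 2462 bp the mean ratio was 3.81 ± 1.96, and at 1802 bp it was 4.08 ± 3.54. The latter is the member region in which the replicates differed most: ChIP replicate 1 had 125 reads and replicate 2 had 30, a quotient of 4.17 where the median of all regions was 2.03, and the replicate 2 ratio was 1.58 with a 95% interval from 0.860 to 2.97.

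GID1A (AT3G05120) was bound at 3 places, all upstream. The highest, 99 bp from the gene by the deposited annotation (chr3:1430195-1430549), had 315 and 141 ChIP reads against 43 and 0 control reads and ratios of 7.33 and 3.28, with a mean of 5.30 ± 2.86. Its midpoint falls in an untranslated exon of the TAIR10.1 model of GID1A, and its paired GGAATAT elements are printed above. At 1671 bp upstream, nearer to AT3G05110, 276 and 134 ChIP reads stood against 46 and 2 control reads, with a mean ratio of 4.27 ± 2.09 and no element. At 539 bp upstream, the site of the facing elements, 145 and 55 ChIP reads stood against 29 and 1 control reads, with a mean ratio of 3.33 ± 2.12 and a replicate 2 ratio of only 1.83. The region at the gene start was therefore the only one of them with an unscaled ratio of at least 3 in each replicate. Scaled to the total reads of replicate 1, the replicate 2 ratios at 99, 1671 and 539 bp were 6.59, 5.61 and 3.68.

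GID1C (AT5G27320) had a single region, 293 bp downstream (chr5:9631255-9631753). It held 540 and 272 ChIP reads, the most of the 34, against 87 and 2 control reads, and the ratios were 6.07 and 3.06 with a mean of 4.56 ± 2.13. Of its 3 elements, both AGAATAT windows are printed above with the run of letters they share. Its depth gave the narrow intervals of 4.84 to 7.68 in replicate 1 and 2.40 to 3.93 in replicate 2.

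Of the 5 DELLA genes, RGA, GAI and RGL1 were bound, and RGL2 and RGL3 were not. Together 11 of their 22 regions were bound, with a median mean ratio of 2.80 and a range from 1.29 to 6.81. RGA (AT2G01570), a main repressor of stem elongation, had 4 bound regions. The one 3883 bp upstream (chr2:261228-261640), printed above with its GGAATAA element, held 410 and 203 ChIP reads against 43 and 2 control reads. Its ratios were 9.11 (95% interval 6.69 to 12.7) and 4.51 (3.25 to 6.38), with a mean of 6.81 ± 3.25, and it ranked 376 among all regions. It lies between RGA and AT2G01580, which is slightly nearer at 3610 bp. A second distal region, 5837 bp upstream of RGA and 1656 bp from AT2G01580, had a mean ratio of 4.62 ± 2.47. On the other side, 1248 bp downstream of RGA (chr2:253812-254190), 247 and 143 ChIP reads stood against 35 and 0 control reads, with ratios of 7.06 and 4.09 and a mean of 5.57 ± 2.10, and this region held no element. A weaker region inside the gene, in an untranslated exon, had a mean ratio of 3.07 ± 1.72. RGA was thus bound on both sides at ratios of at least 3 in each replicate.

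GAI (AT1G14920), the DELLA gene named after a GA-insensitive dwarf mutant, had 4 bound regions of 7. The highest was 1259 bp upstream (chr1:5147803-5148131), with 252 and 113 ChIP reads, 34 and 1 control reads, and ratios of 7.20 and 3.23 with a mean of 5.21 ± 2.81. It was the only one of the 4 that reached 3 in both replicates. A broad region of 609 bp just past the gene, 150 bp downstream, had 506 and 238.5 estimated ChIP reads against 88 and 3 control reads and a mean ratio of 4.09 ± 2.08 without an element. The more distal regions, 3435 and 4094 bp upstream, lay nearer to AT1G14910. Their mean ratios were 3.34 ± 2.08 and 3.82 ± 1.91, and each held 2 elements.

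RGL1 (AT1G66350) was bound at 4152 bp upstream with a mean ratio of 4.0 ± 2.18, at 7659 bp upstream, nearer to AT1G66345, with 3.11 ± 1.82, and within its coding sequence with 3.1 ± 1.24. None of these regions reached 3 in replicate 2, and each held 1 element. In the coding region the element lay 1 bp from the midpoint. For RGL2 (AT3G03450), the DELLA gene best known for repressing germination, the single region had a mean ratio of 1.30, and for RGL3 (AT5G17490) the highest region had 1.80.

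**Figure D3:**
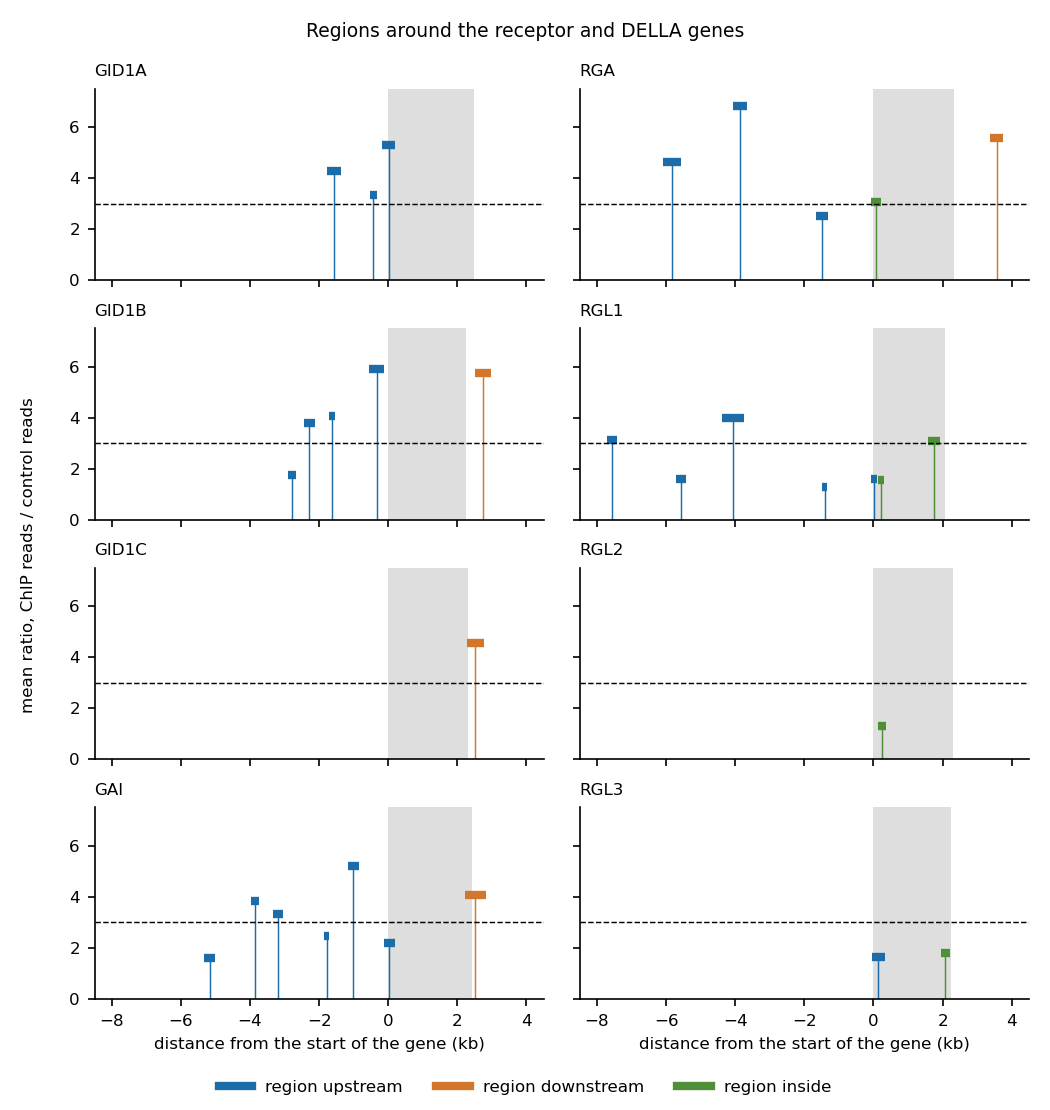
Regions around the 3 receptor and 5 DELLA genes, drawn by distance from the start of each gene in its direction of transcription (kb, horizontal) and by mean ratio (vertical, linear from 0). Grey boxes are the TAIR10.1 gene models, bar lengths are region sizes, colours give the side in the deposited annotation and the dashed line is a mean ratio of 3; GAI, GID1B and RGA have bound regions on both sides, RGL2 and RGL3 none.

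Among the genes that inactivate the hormone, GA2OX1, GA2OX4, GA2OX6 and GA2OX8 had bound regions, 7 of 25 in this family, while the family's median mean ratio was 2.00. GA2OX4 (AT1G47990) had the highest member region of all, 2070 bp downstream (chr1:17702640-17703169). Its 361 and 200 ChIP reads stood against 39 and 1 control reads, the ratios were 9.03 and 5.0, and the mean of 7.01 ± 2.85 ranked 334 among all regions. It held 3 elements. The nearer gene is however MYB112 (AT1G48000), a MYB transcription factor gene, at 1274 bp, and the other bound region assigned to GA2OX4, 4748 bp downstream with a mean ratio of 5.01 ± 1.81, has its midpoint in an intron of MYB112. The only region upstream of GA2OX4 had a mean ratio below 3, so the signal counted for this gene lay nearer to or within its neighbour.

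GA2OX6 (AT1G02400) had bound regions at the gene itself. The region in its intron (chr1:488122-488658) held 380 and 227 ChIP reads against 54 and 0 control reads, with ratios of 7.04 and 4.20 and a mean of 5.62 ± 2.00. The region 57 bp upstream had 197 and 113 ChIP reads against 40 and 1 control reads and a mean ratio of 3.78 ± 1.45. The region 1133 bp upstream, with the paired elements, was at the threshold with a mean ratio of 3.0 ± 1.62. The intronic region was the highest of the 4 bound regions inside member genes.

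GA2OX1 (AT1G78440) was bound 266 bp downstream, with 164 and 85 ChIP reads against 33 and 0 control reads and a mean ratio of 3.77 ± 1.69. GA2OX8 (AT4G21200) was bound in an intron, with 110 and 52 ChIP reads against 21 and 1 control reads and a mean ratio of 3.68 ± 1.86. Neither held an element, and in neither did replicate 2 reach 3. GA2OX2 (AT1G30040), GA2OX3 (AT2G34555) and GA2OX7 (AT1G50960) had highest mean ratios of 1.99, 1.72 and 1.60.

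For the listed genes that make the hormone, 2 of 35 regions (5.71%) and 2 of 11 genes (18.2%) were bound. All regions had 18.8% and all genes 25.4%. Of the further GA 3-oxidase genes outside the list, GA3OX3 had 2 of 2 regions bound and GA3OX4 had 0 of 2. The regions of GA3OX4 lie inside the listed GA3OX2 and are already among the 35. The share therefore depends on which genes were listed. The 5 early genes, GA1 (AT4G02780), GA2 (AT1G79460), GA3 (AT5G25900), KAO1 (AT1G05160) and KAO2 (AT2G32440), which carry the pathway from its first cyclization through the ent-kaurene and ent-kaurenoic acid oxidations, had 13 regions with a median mean ratio of 1.59, near the 1.62 of all regions, and a maximum of 2.45, beside GA1. The 4 GA 20-oxidases had a median of 1.74, and 1 of their 12 regions was bound, 1880 bp downstream of GA20OX3 (AT5G07200), with 190 and 77 ChIP reads against 40 and 0 control reads and a mean ratio of 3.34 ± 2.00. GA20OX2 (AT5G51810) came closest to the threshold from below, with a region 501 bp downstream at a mean ratio of 2.94. GA20OX1 (AT4G25420) reached 2.19 and GA20OX4 (AT1G60980) 1.04. The 2 listed GA 3-oxidases had a median of 1.46, and 1 of their 10 regions was bound. It lay 3569 bp upstream of GA3OX1 (AT1G15550) and nearer to AT1G15560. Its 199 and 95 ChIP reads stood against 38 and 2 control reads, with a mean ratio of 3.67 ± 1.84. GA3OX2 (AT1G80340) reached 2.11. Neither bound region of these listed oxidases had a replicate 2 ratio of 3.

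The GASA genes encode small cysteine-rich peptides, several of which respond to gibberellin. GASA6 (AT1G74670) had the strongest region of the family, 4699 bp upstream (chr1:28048364-28048809), with 326 and 162 ChIP reads against 48 and 1 control reads, ratios of 6.65 and 3.31 and a mean of 4.98 ± 2.37. Its element lay 4 bp from the midpoint, and the nearer gene was MIF1 (AT1G74660), which encodes a small zinc finger protein, at 459 bp. Closer to GASA6, 877 bp upstream, the mean ratio was 3.66 ± 1.87. GASA1 (AT1G75750) had 3 bound regions, 1103 bp upstream (3.76 ± 1.34), 2144 bp upstream and slightly nearer to AT1G75760 (3.40 ± 2.03) and 192 bp downstream (3.18 ± 1.46), none with 3 in both replicates. GASA4 (AT5G15230) rested on the thinnest of the bound regions, 1948 bp upstream and nearer to AT5G15220, with 67 and 26 ChIP reads against 15 and 0 control reads and a mean ratio of 3.1 ± 1.93. Its replicate 2 ratio of 1.73 had an interval from 0.885 to 3.52. GASA14 (AT5G14920) reached 2.55, and SLY1 (AT4G24210), the F-box gene of the DELLA regulators, 1.47.

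The replicates differed in height throughout. The ratio of replicate 1 was above that of replicate 2 in 34 of 34 bound member regions, as in 99.9% of all bound regions, and the quotient of their reads had a median of 2.11 and a range from 1.67 to 4.17. Both ratios were at least 3 in 11 of the 34 (32.4%), against 39.1% of all bound regions. These ratios are not scaled for depth, and replicate 1 held 2.01 times the reads of replicate 2 over all called regions. Whether depth accounts for replicate 2 ratios below 3 was not tested. Replicate 2 alone was also scaled up by that factor, with the controls unscaled. Its lowest ratio in the 34 regions was then 3.17, at the GID1B region at 1802 bp. This cannot show replication, since the 34 were chosen on a mean that contains the same reads. With both replicates scaled to the same total, 32 of the 34 had a mean ratio of at least 3. The 11 regions with both unscaled ratios of at least 3 lay beside GAI, RGA, GA2OX4, GA2OX6, GASA6, GID1A, GID1B and GID1C. Exact 95% intervals, which cover counting error only, lay above 3 for replicate 1 in 31 of 34 regions and for replicate 2 in 4. For replicate 2 they lay above 1 in 32 of 34, the exceptions being GASA4 and the GID1B region at 1802 bp. Control reads per bound member region ran from 15 to 91 with a median of 40, against 27.0 in all regions, and control 2 gave at most 4 of them and none in 16 regions. The threshold cut through a dense part of the range, since 9 member regions had mean ratios from 2.5 to under 3 and 10 from 3 to under 3.5.

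**Figure D4:**
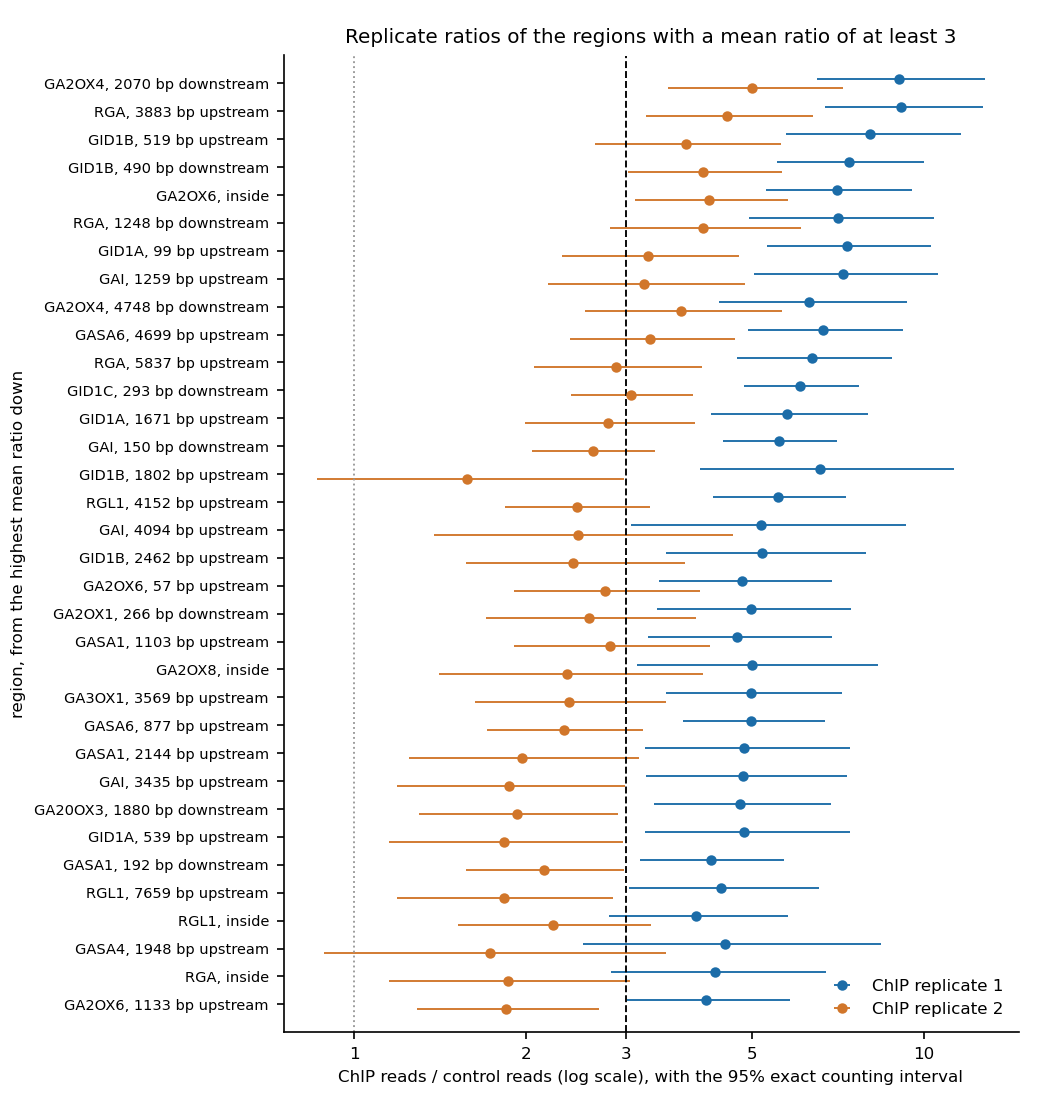
Ratio of ChIP to control reads (horizontal, log scale) in ChIP replicates 1 and 2 for the 34 member regions with a mean ratio of at least 3, ordered by mean ratio, with exact 95% counting intervals as bars. The dashed line marks a ratio of 3 and the dotted line 1; replicate 1 lies to the right of replicate 2 in all 34 regions, and both points reach 3 in 11.

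The element VGAATAW was found in 18 of the 34 bound member regions (52.9%, exact 95% interval 35.1 to 70.2) and in 69.8% of all bound regions. The study derived it from regions of at least 3-fold enrichment in these data. Its share in bound regions, and the contrast with regions below 3, are therefore not independent of how it was found. The interval covers counting error only and takes the regions as independent, although several lie beside 1 gene, and the difference was not tested. The density was 2.38 elements per kb against 3.36, while the median sizes were 363 and 354 bp. Among member regions below 3, 36 of 75 (48.0%) held an element, against 42.6% of all regions below 3. Per kb the order was the opposite, with 2.29 elements against 2.46, and the median sizes were 255 and 224 bp. In the 11 regions with both ratios at least 3 it was found in 8 (72.7%), where all such regions had 76.3%. The 3 without it lay 519 bp upstream of GID1B, 1248 bp downstream of RGA and 4748 bp downstream of GA2OX4. Of the 31 elements in the bound member regions, 7 read AGAATAA and 5 read AGAATAT, 3 read CGAATAA and 3 read CGAATAT, and 7 read GGAATAA and 6 read GGAATAT. Within 50 bp of a region's midpoint lay 15 of the 31 (48.4%), against 40.3% of the elements in all bound regions. A match is a run of letters and was not tested for binding.

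The position of the bound regions was described for each pair of region and gene. Of the 34, 21 lay upstream of the member (61.8%, against 59.8% of all bound pairs), 9 downstream (26.5%, against 34.6%) and 4 inside it (11.8%, against 5.64%). Only 5 lay within 1 kb upstream (14.7%, against 21.8%), beside GA2OX6, GASA6, GID1A with 2 of them, and GID1B. Distances ran from 57 to 7659 bp with a median of 1736 bp, against 1474 bp for all bound pairs, and 9 regions lay over 3 kb away. The member was the overlapped or nearer gene in 20 of 34 pairs (58.8%, against 47.3%). By the TAIR10.1 models, 28 midpoints were intergenic, 3 in introns, 2 in untranslated exons and 1 in coding sequence. For the 14 regions nearer to another gene, such as those assigned to GA2OX4 and the distal ones of RGA, which gene KAN1 might act on cannot be told from position.

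A further 25 genes of the pathway, taken from a list of known roles, were read in the same way. The table names 23 of them, of which 8 lay beside a bound region (34.8%, against 25.4% of all genes), with 12 of 59 regions bound (20.3%, near the 18.8% of all regions). Their median mean ratio was 1.83, and the regions of GA3OX4 among them are also member regions, inside GA3OX2. The genes of DELLA partners, SCL3 (AT1G50420), IDD1 (AT5G66730) and IDD2 (AT3G50700), were bound in 3 of 3 cases. Each has 3 regions, and 52.3% of all genes with 3 or more regions were bound. The further DELLA regulators SNE and SEC had no bound region, with highest mean ratios of 2.73 and 1.34. MYB33 and MYB65 had none either, with 1.66 and 2.12. SCL3, a GRAS protein that promotes gibberellin responses by opposing DELLA proteins, had 583 and 308 ChIP reads against 62 control reads 837 bp upstream, a mean ratio of 7.19 ± 3.14, and a further region 130 bp upstream at 5.91 ± 2.52. IDD1, a zinc finger protein, reached 4.99 ± 1.89 at 1295 bp upstream. The highest ratio near any of the 25 genes was 10.6 ± 5.66, 4892 bp upstream of GA3OX3 (AT4G21690). There 364 and 164 ChIP reads stood against 25 control reads, but NRT1.8, a nitrate transporter gene, was nearer at 2571 bp. A second bound region, 1120 bp upstream, was nearest to GA3OX3 itself. It was thin, with 26 and 11 ChIP reads against 5 control reads and a mean ratio of 3.70 ± 2.12. The bound region of GAMT2 (AT5G56300), a gibberellin methyltransferase gene, had a mean ratio of 7.13 ± 3.5. It lay 7208 bp upstream of GAMT2 and only 137 bp from PEX5. ELA2 (AT5G24900), a cytochrome P450 gene that inactivates gibberellin, reached 5.25 ± 1.90 at 2480 bp downstream, where AT5G24890 was nearer at 1922 bp. A bound region lay beside 0 of the 9 other GASA loci that the table names, and their highest mean ratio was 2.63. They had 17 pairs of region and gene, since a region between GASA2 and GASA3 counts for each. The 4 member GASA genes had 16 regions, and the groups were not tested against each other.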

How the data were processed

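The authors mapped the reads to TAIR10, thinned duplicate reads by a heuristic, which can lower the counts of the highest regions, called regions and deposited one table with the estimated counts of reads of every library in each region, not scaled between libraries. The aligner and caller are not given in the sources used here. The table also holds the authors' false discovery rates and ranks, which were not used. Its distances run from the region centre to the gene. Whether starts count from 0 or 1 is not given; they were read as 1-based. The file's column notes describe a further replicate, not analysed here. No sample column was left unused (0 columns).

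Groups came from the sample labels. A ratio of ChIP reads to the summed reads of both controls was computed per replicate, and a region was called bound at a mean ratio of at least 3. Exact 95% Clopper-Pearson intervals of the ChIP share were turned into ratios, after rounding fractional counts, and cover counting error only. The total reads lie in called regions only, and low control counts limit the precision. The regions were called by this same comparison, so no test was made, and shares of members are set beside those of all genes. The members, the other pathway genes and the counts were chosen with earlier results of these data known. Every member with a bound region is named with all such regions, and the others by their highest ratio. Of the other pathway genes the 5 highest are described, with some others named for comparison. Of the symbols, 32 of 32 members' and 18 of the 25 others' are in the RefSeq annotation of TAIR10.1, whose chromosomes served for the element search and whose gene models differ from those of the table.

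Python 3.11.15, numpy 2.4.6, pandas 2.3.3, scipy 1.17.1 and matplotlib 3.10.9 were used, and the steps were tested on simulated data. Alternatives covered the control, added reads, scaling, replicates, the threshold, the distance and the element.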

Additional observations from a re-analysis of the deposited data

How the results depend on the processing

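The 15 genes and 34 regions called bound changed with the scale of the control, the threshold and the replicate. With the mean of both controls as the denominator, in place of their sum, 26 genes and 83 regions were bound. The median was 4.18, but 60.5% of all genes were then bound too. This setting multiplies every ratio by 2 and so equals a threshold of 1.5 with the summed controls. It does not show how the choice of control matters. With 10 reads added to every library, 22 regions and 12 genes remained bound, without GA20OX3, GA2OX8 and GASA4, against 18.6% of all genes. A mean ratio of at least 2 gave 56 regions, and one of at least 4 gave 9 genes and 16 regions. A ratio of at least 3 in both replicates gave 8 genes and 11 regions, 72.7% of them with the element, the same counts as replicate 2 alone. Leaving out a ChIP replicate gave 8 to 18 genes, 11 to 48 regions, medians of 1.39 to 2.66 and an element in 58.3 to 72.7% of the regions, and without replicate 1 GA20OX3, GA2OX1, GA2OX8, GA3OX1, GASA1, GASA4 and RGL1 had no bound region. Counting only genes overlapped by or nearest to the region, a choice made after seeing the data, gave 20 regions and 12 genes, without GA2OX4, GA3OX1 and GASA4, against 22.5% of all genes. With GAATA alone, 76.5% of the bound member regions held a match, against 84.6% of all bound regions. Control 1 alone, scaling the replicates to 1 total and a limit of 3 kb gave 16, 14 and 14 genes; scaling lost GASA4, and the 3 kb limit GA3OX1. Under the 3 kb limit 44.0% of the bound member regions held the element, the lowest share of these settings. The share of gibberellin genes stayed above that of all genes in each of these settings. They reuse the same counts and the same gene list and are not independent, and the settings of the element cannot change the share of genes. No paired analysis was possible because the results come from no test; ratios to the same-numbered control were not computed, since 16 of the 34 regions have no reads in control 2.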
